A study of Mus musculus with 12 samples.

Results

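The 6 genes described here encode proteins that liver cells secrete into the blood to carry or bind other molecules: albumin (Alb), alpha-fetoprotein (Afp), transthyretin (Ttr), transferrin (Trf), fetuin-A (Ahsg) and retinol-binding protein 4 (Rbp4). They were chosen by name, and a site of a gene was a genomic region with a glucocorticoid receptor (GR) peak centred inside the gene's mm10 span or within 50 kb of it. Peaks of the 11 lists that shared at least 1 bp were merged, which gave 47502 regions in all, and 38 of them were sites of these genes. Alb had 9 sites, Afp 8, Ttr 6, Trf 4, Ahsg 12 and Rbp4 7. Alb and Afp are neighbours, and all 8 sites of Afp were also sites of Alb, so these were counted once. The 38 sites rested on 103 of the 109273 peaks.

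GR binding was measured by chromatin immunoprecipitation and sequencing (ChIP-seq) in BWTG3, a mouse hepatoma cell line, with a rabbit antibody to GR. After 24 h without serum the cells received no named agent (NI, 3 libraries), 1 µM of the synthetic glucocorticoid dexamethasone (DEX, 3 libraries), 1000 U/ml of tumour necrosis factor, a cytokine (TNF, 2 libraries), or TNF and, 1 h later, dexamethasone (TNFDEX, 3 libraries), with 3 h of stimulation in all. No title in NI names an agent, so NI was read as untreated, and 1 further sample, the input, has no list used here. Replicates are biological by the series' design text, which speaks of 3 conditions, whereas the labels give 4 groups. All groups were the same tumour cell line in culture, and GR peaks say nothing of whether the 6 genes were expressed in it.

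Dexamethasone binds GR in the cytoplasm, and the receptor then enters the nucleus and binds DNA, either at its own recognition elements or through other factors. In liver cells much of this binding lies far from gene starts, in enhancers already held open by liver factors such as the FoxA proteins and HNF4A. Albumin is the main protein of plasma, and alpha-fetoprotein is its fetal relative. An enhancer upstream of Alb and several in the interval between Alb and Afp are the textbook control regions of this pair, and TNF is a cytokine of the acute phase response, in which the liver makes less albumin and transthyretin.

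RefSeq promoter windows (GRCm38.p6, which is mm10) matched 4 of the 6 genes, namely Alb, Afp, Ahsg and Rbp4. The 250 bases before the start of the first 3 are shown because these genes had the most or the strongest GR sites of the 6 with dexamethasone, while no site over these windows was called in 2 libraries of any group. They are written on the gene's strand, which is the plus strand for all 3, at chr5:90460620-90460869, chr5:90490464-90490713 and chr16:22891765-22892014. Capitals mark letters found on either strand that match AGAACA (the core of a GR element), GTTAAT (the core of an HNF1 site) or TTGCNNAA (a C/EBP site).
Alb: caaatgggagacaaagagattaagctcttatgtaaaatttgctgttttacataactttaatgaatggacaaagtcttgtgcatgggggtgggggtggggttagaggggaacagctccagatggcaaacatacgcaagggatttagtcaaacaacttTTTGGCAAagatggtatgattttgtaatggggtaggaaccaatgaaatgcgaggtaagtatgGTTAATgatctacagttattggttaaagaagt
Afp: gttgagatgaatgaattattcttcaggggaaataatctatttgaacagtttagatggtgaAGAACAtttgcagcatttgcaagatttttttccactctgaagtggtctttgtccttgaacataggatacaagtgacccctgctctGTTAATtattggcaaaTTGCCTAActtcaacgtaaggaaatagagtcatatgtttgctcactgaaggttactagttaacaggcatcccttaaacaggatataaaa
Ahsg: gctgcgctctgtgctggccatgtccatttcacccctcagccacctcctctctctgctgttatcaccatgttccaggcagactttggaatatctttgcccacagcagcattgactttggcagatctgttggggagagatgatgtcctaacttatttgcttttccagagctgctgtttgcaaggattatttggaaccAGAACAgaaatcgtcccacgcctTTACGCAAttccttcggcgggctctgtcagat
The Alb window held 1 match each to the HNF1 and C/EBP letters and none to the GR core. In the Afp window there was 1 match to each of the 3 motifs, and in the Ahsg window 1 to the GR core and 1 to C/EBP. Of 32851 windows of the same length, 16.1% held the GR core, 6.43% the HNF1 letters and 9.56% the C/EBP letters. Such a match is a stretch of letters, not a bound site, and its lack says only that the letters are not in the window. Across the 300 bases from 250 before to 50 after the start, Alb had a peak in NI replicate 2 (normalized tag count 7.7) and in DEX replicate 1 (7.9). No library had a peak over the Afp or the Ahsg window. Rbp4 had weak peaks at its start in DEX replicate 2 (12.2), TNF replicate 1 (11.7 and 10.6) and TNFDEX replicate 1 (13.7). The normalized tag count is the authors' number of tags in a peak per 20000000 tags of the library, and it is the signal given throughout.

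Depth was alike, from 39228805 to 51141996 tags per library, but the share of tags in nuclear peaks ran from 0.106% in NI replicate 3 to 2.91% in TNFDEX replicate 1, and the number of nuclear peaks from 2522 to 22589 in the same libraries. Libraries that cut across the groups, 5 in all (NI replicate 3, DEX replicate 3, TNF replicate 2, TNFDEX replicates 2 and 3) had 0.355% to 0.541% of their tags in peaks on the mitochondrial genome. The other 6 libraries had 0.00645% to 0.0348%. The labels give no batch, and this split is described as a property of the libraries. Lists give values only for called peaks, so a site without a call has an unknown signal rather than 0, and no fold change can be given against it. In bulk ChIP-seq, binding in fewer cells and weaker binding in each cell cannot be told apart.

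More sites of the 6 genes, and more of all regions, carried GR peaks in the libraries with dexamethasone. Calls in at least 1 library were made at 21 of the 38 sites in DEX (45.3% of all 47502 regions) and 25 in TNFDEX (59.2%), against 10 in NI (25.8%) and 7 in TNF (25.6%). The NI libraries had calls at 5, 7 and 0 of the sites, and the DEX libraries at 11, 14 and 14. TNF alone gave 7 and 2 called sites, and TNFDEX gave 20, 10 and 13. The 3 NI libraries and both TNF libraries lay below every library with dexamethasone, while the DEX and TNFDEX ranges overlapped. Peaks in all also differed, from 2524 to 6502 in NI and 10480 to 13021 in DEX. They were 8943 and 4132 in TNF and 8641 to 22590 in TNFDEX. The part of these totals in the counts of called sites was not tested. Required in at least 2 libraries of a group, sites numbered 12 in DEX (19.5% of regions met this rule) and 10 in TNFDEX (24%), against 2 in NI (4.23%) and 2 in TNF (1.95%). Those of NI and TNF were the same 2 sites, before Afp and beyond the higher-coordinate end of Trf, which is called beyond Trf below. In every library of its group, 6 sites were called in DEX (11.9% of regions) and 8 in TNFDEX (12.2%), against 0 in NI (0.472%) and 2 in TNF (1.95%).

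In all, 13 sites were called in at least 2 libraries of some group, and all 13 met this rule in DEX or in TNFDEX. Of all 47502 regions, 13801 (29.1%) met it in some group and 13238 met it in DEX or in TNFDEX. Meeting the rule with dexamethasone was thus common to most such regions and no trait particular to these 13 sites. No library without dexamethasone had a call at 8 of the 13 sites, 61.5%. The share was 63.3% of the 13238 regions chosen the same way, so the 2 shares were near each other. The 8 were 4 of the Alb and Afp sites, both reproducible sites of Ttr, 1 site in the range of Ahsg and 1 in that of Rbp4. The other 5, with a call in NI or TNF, were 1 site before Afp, 2 at Trf, the strongest site of Ahsg and 1 site near Rbp4. Each of the remaining 25 sites stayed below 2 libraries in every group, at normalized tag counts of 6.6 to 17.8. Of these 25, 21 were called in 1 library only, 10 of them in TNFDEX libraries, 5 in NI, 4 in DEX and 2 in TNF. TNFDEX replicate 1, the library with the most peaks in all (22590), gave 6 of the 10. The share of all regions called in 1 library only was not counted.

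**Figure D1:**
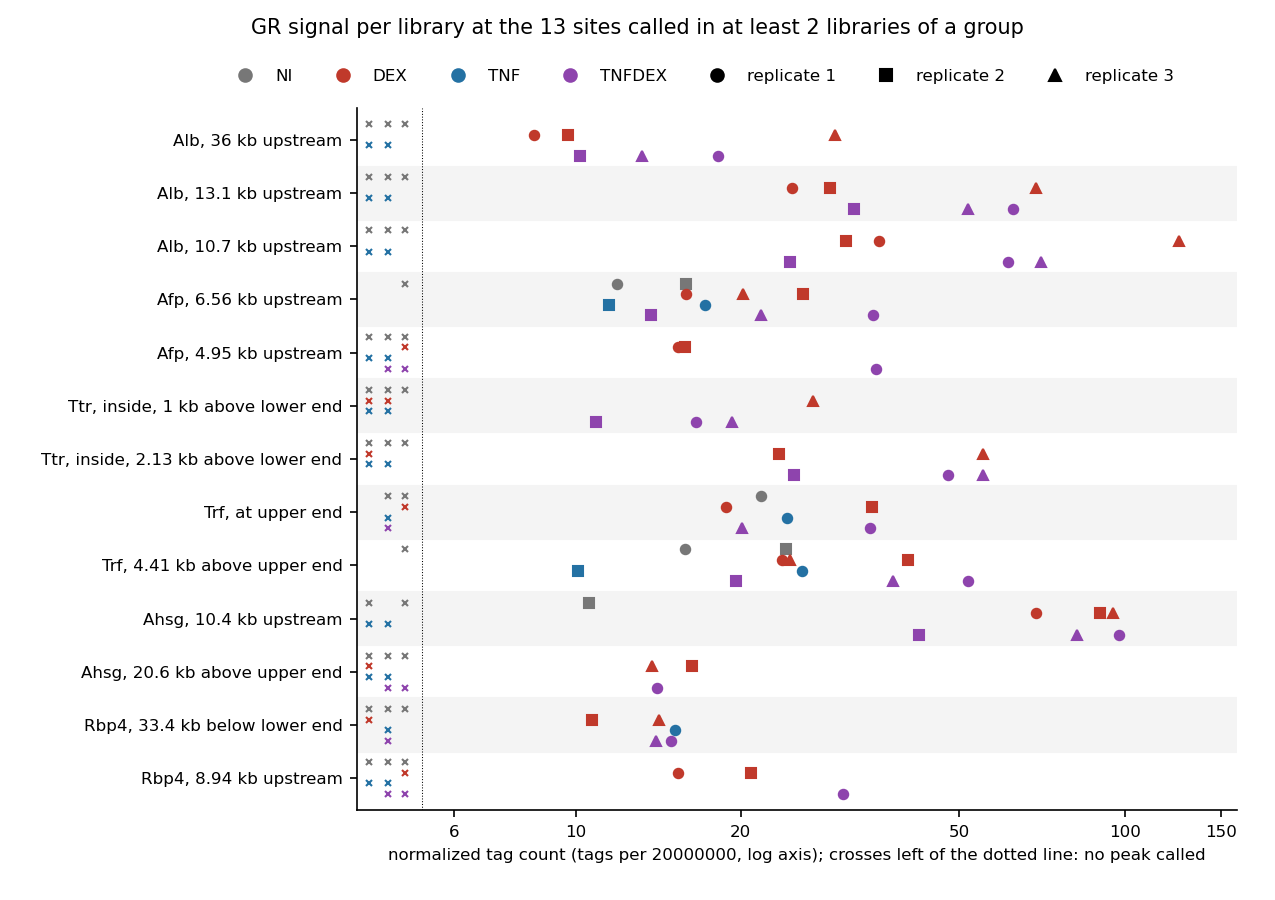
Normalized tag count (tags per 20000000, log axis) of each library at the 13 sites called in at least 2 libraries of a group, coloured by group, with a marker shape per replicate number; crosses at the left stand for libraries with no call, which have no value. At the 3 sites upstream of Alb all 6 libraries with dexamethasone have a value and all 5 without it are crosses, and DEX replicate 3 is the highest point at each of them.

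By gene, the number of peaks within 50 kb separated the libraries most clearly at Alb. NI libraries had 1, 2 and 0 peaks near Alb and TNF libraries 1 and 1, against 6, 5 and 7 in DEX and 5, 4 and 5 in TNFDEX. Averaged over the cells without and with TNF, dexamethasone libraries had 4.33 more peaks at Alb and 3.33 more at Afp, the 2 genes sharing most of them. Both differences had the smallest p that the exact two-sided permutation test of library labels within each TNF background can give, 0.005, but an adjusted p of 0.115 over 17542 genes. For Ahsg, NI libraries had 1, 1 and 0 peaks, DEX 2, 2 and 3, TNF 1 and 0, and TNFDEX 5, 3 and 2, a difference of 2.25 peaks (exact permutation p = 0.01, adjusted p = 0.140). The groups with and without dexamethasone did not overlap at Alb, Afp or Ahsg. How many of all genes showed this was not counted, so it is given as a description and not as a trait of these genes. Nuclear peaks in all were also fewer in NI (2522 to 6501 per library) than in DEX (10479 to 13020). With TNF present these totals overlapped, at 8942 and 4130 in TNF and 8639 to 22589 in TNFDEX. The part of these totals in the peak numbers per gene was not tested.

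For the other 3 genes the groups with and without dexamethasone did overlap. Ttr, whose product carries thyroid hormone and the complex of RBP4 with retinol, had 1.5 more peaks with dexamethasone (exact permutation p = 0.065, adjusted p = 0.323). The differences were 0.917 peaks at Rbp4 (exact permutation p = 0.365, adjusted p = 0.815) and 0.417 at Trf (exact permutation p = 0.5, adjusted p = 0.878). None of the 6 genes passed the adjusted threshold of 0.05, nor did any of the 17542 genes tested (0%), although 16.6% of them, 3 of the 6 included, had an unadjusted exact permutation p below 0.05. The median difference was 1.88 peaks over the 6 genes and 0.333 over all genes tested. With labels permuted also within the mitochondrial split, Alb, Afp and Ahsg each had the smallest p possible there, 0.0139 in the exact permutation test (adjusted p = 0.209). In that setting 2970 of the 17542 genes had an unadjusted exact permutation p below 0.05.

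For the presence of TNF the differences in peak number were small and of both signs. They were -0.667 at Alb and at Afp, 0.5 at Ttr, 0.25 at Trf, and 0.417 at both Ahsg and Rbp4. No member passed, nor did any other gene (0%, exact permutation test, adjusted p = 1), and 0.901% of genes had an unadjusted p below 0.05, none of the 6 among them.

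**Figure D2:**
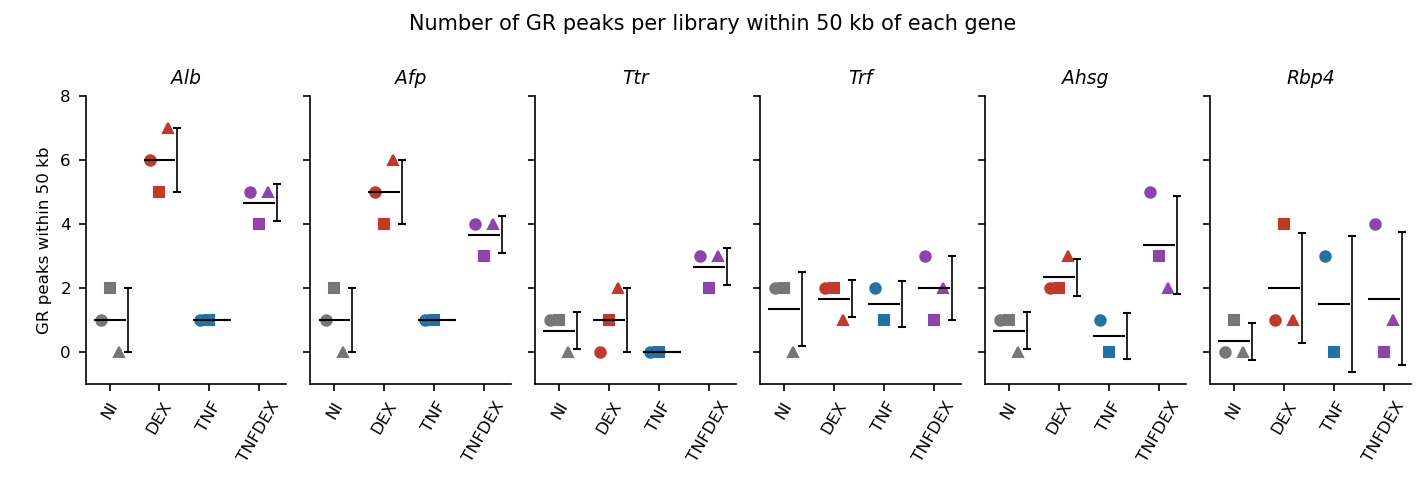
Number of GR peaks within 50 kb of each gene in each library, by group; marker shapes are replicate numbers (circle 1, square 2, triangle 3), horizontal lines are group means and bars the SD over 3 libraries (2 in TNF). Alb runs from 0 to 2 peaks without dexamethasone and from 4 to 7 with it, while at Trf and Rbp4 the 4 groups overlap.

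Among all 21900 protein-coding genes, the 6 genes ranked differently by the number of their sites and by the strongest of them. Alb had 5 sites called in at least 2 DEX libraries, as many as or more than which were found at 1.55% of genes, and Afp had 4 (3.02%). Trf, Ahsg and Rbp4 had 2 each (14.4%) and Ttr 1 (36.5%). In TNFDEX Alb had 4 (3.78%), Afp 3 (7.64%), Ttr and Trf 2 (16.8%), and Ahsg and Rbp4 1 (39.4%). The strongest site of Ahsg averaged a normalized tag count of 84.8 in DEX, a mean reached by 2.85% of genes, and 73.8 in TNFDEX (4.32%). That of Alb and Afp averaged 64.2 in DEX (4.32%) and 52.1 in TNFDEX (6.92%), but 33.4 (9.10%) over DEX replicates 1 and 2, without replicate 3. Without that replicate Ttr had no site left in both DEX libraries. In DEX the strongest-site means were 39.3 for Ttr (8.43%), 29.6 for Trf (12.3%) and 18.2 for Rbp4 (21.0%). A gene had a median of 0 such sites, and 63.5% of genes had none, so each of the 6 genes had more sites than the median gene over the 3 DEX libraries. Genes differ in length and in how close their neighbours lie, and no test was made of these ranks.

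Alb (chr5:90460870-90476602, plus strand) carried its strongest GR signal upstream. The site 10.7 kb upstream of the gene (chr5:90450041-90450234, intergenic) had normalized tag counts of 35.7, 31.1 and 125.8 in DEX and 61.4, 24.6 and 70.3 in TNFDEX. The next, 13.1 kb upstream (chr5:90447680-90447913), had 24.8, 29.1 and 68.9 in DEX and 62.6, 32.1 and 51.8 in TNFDEX. The third, 36.0 kb upstream (chr5:90424709-90424939), was weaker, with 8.4, 9.7 and 29.7 in DEX and 18.2, 10.2 and 13.2 in TNFDEX. All 3 sites were called in every library with dexamethasone and in none of the 5 without it.

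The 10.7 kb site was also sharply placed: the centres of its 6 peaks lay within 22 bp of each other, and its focus ratio, HOMER's share of tags near the peak centre, was 0.873 to 0.941. Its fold over the input, the authors' value per peak, was 9.52 to 48.9. The spread in DEX came from replicate 3. At the 10.7, 13.1 and 36.0 kb sites DEX replicate 3 exceeded the mean of DEX replicates 1 and 2 by 3.77, 2.56 and 3.28 times, where the median over the 5657 regions called in all 3 DEX libraries was 1.26. These ratios stood at the 98.3, 91.9 and 96.7 percentile of those regions. DEX replicate 3 is the DEX library with the high mitochondrial signal, and the part of that in these values was not tested. In TNFDEX the library with the low mitochondrial signal, replicate 1, was the highest at 13.1 and 36.0 kb but not at 10.7 kb.

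Between Alb and Afp lay a site with a different pattern of calls. Afp (chr5:90490714-90508907, plus strand) had a site 6.56 kb upstream of its start and 7.56 kb beyond the end of Alb (chr5:90484059-90484256), called in 10 of the 11 libraries. Its normalized tag counts were 11.9 and 15.9 in NI, with no call in NI replicate 3, and 15.9, 26.0 and 20.2 in DEX. They were 17.2 and 11.5 in TNF and 34.8, 13.7 and 21.8 in TNFDEX, so all 4 groups overlapped. This site was called with and without dexamethasone, whereas the 3 upstream of Alb were called only with it. The signal at those 3 without dexamethasone is unknown.

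A neighbouring site 4.95 kb upstream of Afp (chr5:90485658-90485878) was called in DEX replicates 1 and 2 (15.4 and 15.8) and TNFDEX replicate 1 (35.3). These are the 3 dexamethasone libraries with the low mitochondrial signal, whose part in the result was not tested. Weak peaks 2.26 kb upstream of Afp were called in DEX replicate 3 (10.3) and TNFDEX replicate 3 (9.5). Inside Afp itself no library had a peak.

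**Figure D3:**
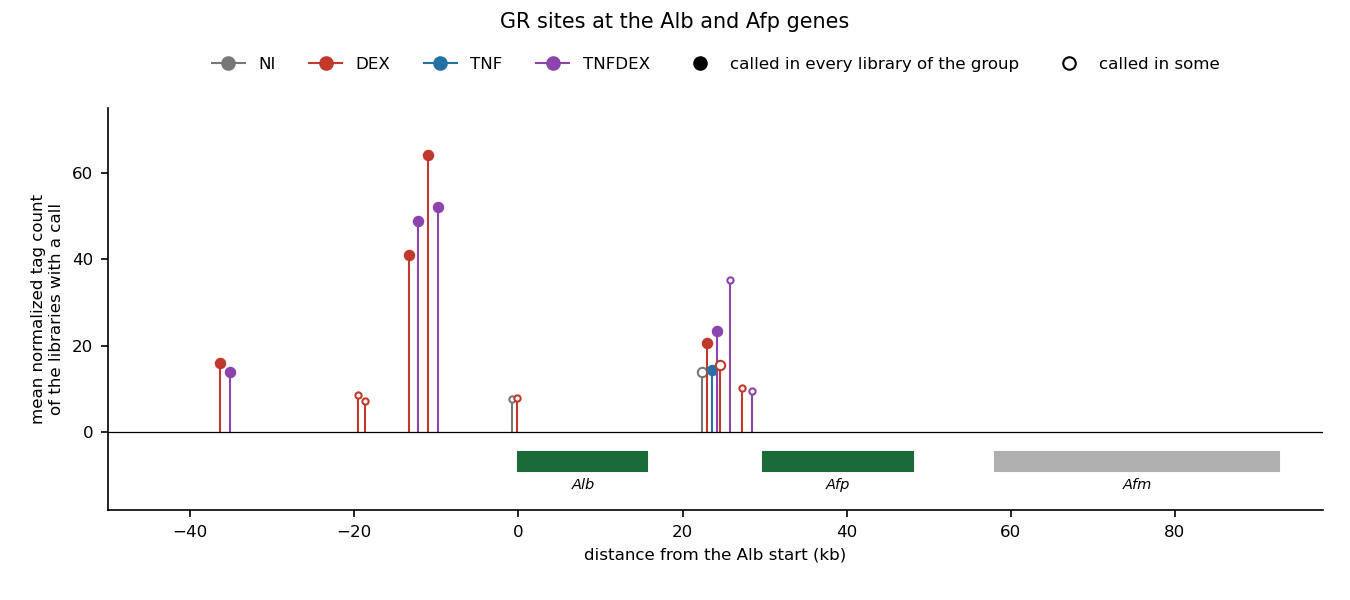
GR sites along the Alb and Afp genes, by distance from the Alb start (kb); the height of each line is the mean normalized tag count of the libraries of a group with a call, filled circles stand for calls in every library of the group, open circles for calls in some, and small open circles for 1 library. Lines of the groups are set slightly apart, gene spans are drawn below the axis, and no error is drawn because the values of single libraries are in the plot of normalized tag count per library; the tall lines upstream of Alb are DEX and TNFDEX only, and all 4 groups have a line in the interval before Afp.

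Ahsg (chr16:22892015-22899451, plus strand), whose product fetuin-A binds calcium phosphate mineral in blood, had, of the sites of the 6 genes called in at least 2 libraries, the one with the highest mean signal in both DEX and TNFDEX. It lay 10.4 kb upstream of Ahsg (chr16:22881514-22881774, intergenic) and was nearer, at 2.01 kb, to Dnajb11, which encodes a chaperone of the endoplasmic reticulum. Its normalized tag counts were 68.9, 90.2 and 95.2 in DEX (84.8 ± 14.0, SD, n = 3) and 97.5, 42.2 and 81.8 in TNFDEX (73.8 ± 28.5, SD, n = 3). Of the 5 libraries without dexamethasone only NI replicate 2 had a call, at 10.6, from 22 tags. Every DEX and TNFDEX value was above that call, and DEX and TNFDEX overlapped. DEX replicate 3 was 1.20 times the mean of the other DEX libraries here, close to the median ratio of 1.26.

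Of the other 11 sites in the range of Ahsg, 10 were called in 1 library each. One inside Fetub, the gene of the related fetuin-B (chr16:22919945-22920214, 20.6 kb beyond Ahsg), had 16.3 and 13.8 in DEX replicates 2 and 3 and 14.1 in TNFDEX replicate 1. These peaks were centred up to 98 bp apart, so the calls in 2 DEX libraries there rest on merging at 1 bp.

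Ttr (chr18:20664209-20674326) had its reproducible sites inside the gene span, 1.00 and 2.13 kb above its lower-coordinate end. The inner one (chr18:20666244-20666444) had no call in DEX replicate 1, 23.5 and 55.1 in DEX replicates 2 and 3, and 47.7, 25 and 55.1 in TNFDEX. The outer one (chr18:20665070-20665353) was called in DEX only in replicate 3, at 27.1, and in every TNFDEX library, at 16.6, 10.9 and 19.3. The peaks of the outer one were centred up to 115 bp apart, that of TNFDEX replicate 2 lying lowest. Its calls in every TNFDEX library thus rest on merging at 1 bp. Neither site of Ttr had a call in any NI or TNF library. The 2 NI peaks in the range of Ttr lay elsewhere, at 7.7 and 6.9. The signal of the outer site was not compared between DEX and TNFDEX, since DEX has 1 value there.

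Trf (chr9:103208876-103230286), the gene of the iron carrier of plasma, had both reproducible sites at its higher-coordinate end, and both were called with and without dexamethasone. The sources used here give no strand for Trf or Ttr, so the higher-coordinate end of Trf may be the gene's start. The site 4.41 kb beyond that end (chr9:103234599-103234801) was called in 10 libraries. It had 15.8 and 24.2 in NI, 23.8, 40.3 and 24.6 in DEX, 25.9 and 10.1 in TNF, and 51.8, 19.6 and 37.8 in TNFDEX. NI replicate 3 had no call, and the groups overlapped. The other one, 0.021 kb beyond the same end (chr9:103230191-103230423), was called at 21.8 in NI replicate 1, 18.8 and 34.7 in DEX replicates 1 and 2, 24.3 in TNF replicate 1, and 34.4 and 20.1 in TNFDEX replicates 1 and 3. Of those 6 libraries all but TNFDEX replicate 3 had the low mitochondrial signal.

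Rbp4 (chr19:38116620-38125321, minus strand), the gene of the retinol carrier, had 2 reproducible sites, neither called in every library of a group. A site 8.94 kb upstream, inside Pde6c, which encodes a phosphodiesterase of cone cells (chr19:38134162-38134351), had 15.4 and 20.9 in DEX replicates 1 and 2 and 30.7 in TNFDEX replicate 1. Those are again the 3 dexamethasone libraries with the low mitochondrial signal, and its part was not tested. The other, 33.4 kb below the lower-coordinate end (chr19:38083089-38083328), had Cep55, a gene of cell division, as its nearest gene at 8.78 kb. It had 10.7 and 14.2 in DEX replicates 2 and 3, 15.2 in TNF replicate 1, and 14.9 and 14.0 in TNFDEX replicates 1 and 3.

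Dexamethasone was compared with no agent by asking which sites were called in every DEX library and in no NI library. This held for 3 of the 38 sites, those upstream of Alb, beside 8.03% of all regions. The opposite pattern held for 0 sites (0.0147% of regions). Leaving out DEX replicate 1 raised the count to 6 (11% of regions) and leaving out DEX replicate 3 to 5 (9.49%), and 5 sites (9.53% of regions) met the rule among the libraries with the low mitochondrial signal alone. A comparison of signal needs a value in every library, and none of the 38 sites had one in both groups, because NI replicate 3 had no call at any of them. Of the 179 regions that did, 12.3% were higher and 3.35% lower in DEX (limma, adjusted p below 0.05), or 22 and 6 regions, against 32 and 0 with library totals and 35 and 18 with the replicate block. The median difference between the groups was 0.76 on the log2 scale before scaling and -0.087 after it.

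Where calls in at least 2 libraries of each group were enough, 2 sites could be compared. The site before Afp differed by 0.15 on the log2 scale (SE 0.23, 95% interval -0.38 to 0.68, limma adjusted p = 0.697) and the site beyond Trf by 0.14 (SE 0.24, 95% interval -0.40 to 0.69, limma adjusted p = 0.721). No difference was called at either site, and both intervals allow one in either direction. Over the regions of this fit the median difference between the groups was 0.41 before scaling and -0.074 after it. With library totals alone the differences at the 2 sites were 0.56 and 0.55, and without NI replicate 3 they were -0.0039 and -0.012, none called.

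TNF alone was compared with no agent in the same way. No site was called in both TNF libraries and in no NI library (0.244% of regions), and none showed the opposite pattern (0.0189%). Without TNF replicate 2, which had calls at only 2 sites, 4 sites were called in the remaining 1 TNF library and not in NI, as were 11% of regions. None of the 38 sites had a value in all 5 libraries, and of the 152 regions tested 0% were called in either direction (limma, 0 with an unadjusted p below 0.05). With calls in at least 2 libraries of each group, the log2 differences were 0.09 (SE 0.44) at the site before Afp and -0.22 (SE 0.32) beyond Trf (limma adjusted p = 0.997 for both).

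In TNFDEX dexamethasone came 1 h after TNF, so its time on the cells may have been shorter than in DEX, and this was not tested. For TNF with dexamethasone against dexamethasone alone, no site of the 6 genes separated the groups in its calls. None was called in every TNFDEX and no DEX library (0.491% of regions) and none in every DEX and no TNFDEX library (0.0463%). Without DEX replicate 3 the first count was 1 (1.79% of regions). The 6 sites with a value in all 6 libraries were compared in a fit over 4023 regions, of which 0% were called in either direction (limma, lowest adjusted p 0.0501, 259 regions with an unadjusted p below 0.05). Library totals alone would set the median region 0.14 higher in TNFDEX on the log2 scale. The differences that follow are after scaling, which left the median at -0.015.

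The largest of the 6 was at the site upstream of Ahsg, at -0.42 (SE 0.22, 95% interval -0.91 to 0.07, limma adjusted p = 0.772). At Alb the differences were -0.28 (SE 0.40) at 10.7 kb, 0.20 (SE 0.28) at 13.1 kb and -0.15 (SE 0.35) at 36.0 kb, with limma adjusted p of 0.902, 0.902 and 0.949. The site before Afp differed by -0.05 (SE 0.26, limma adjusted p = 0.985) and the site beyond Trf by 0.08 (SE 0.29, limma adjusted p = 0.971). At the 10.7 kb site of Alb the 95% interval ran from -1.19 to 0.62, so these libraries leave room for a difference beyond 1 log2 unit there. Without DEX replicate 3 the 10.7 and 36.0 kb sites turned to 0.18 and 0.25 and the Trf site to -0.20, none of them called. Calls in at least 2 libraries of each group added 3 sites. The difference was -0.65 at the higher-coordinate end of Trf (95% interval -1.47 to 0.18, limma adjusted p = 0.919). It was 0.20 at the inner site of Ttr (limma adjusted p = 0.973) and -0.10 at the site 33.4 kb from Rbp4 (limma adjusted p = 0.992). With library totals the Trf and Rbp4 values turned to 0.04 and 0.23.

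**Figure D4:**
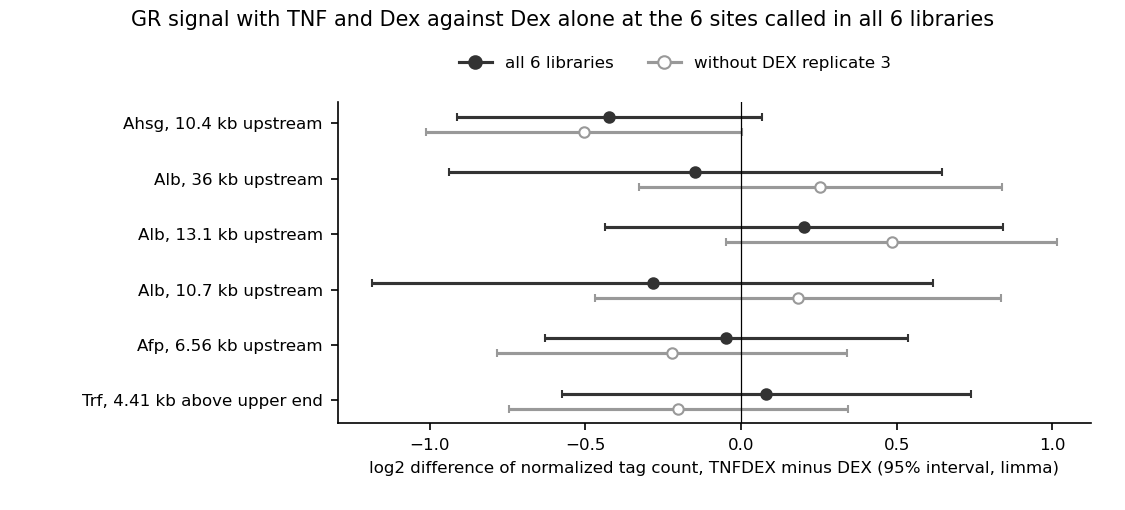
Log2 difference of normalized tag count between TNFDEX and DEX (negative values are lower in TNFDEX) with its 95% interval at the 6 sites with a peak in all 6 libraries, in the fit over 4023 regions (filled) and without DEX replicate 3 (open). All 6 filled intervals include 0, and the sites 10.7 and 36.0 kb upstream of Alb and the site beyond Trf change sign without that library.

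With TNF present in both groups, dexamethasone was compared by the same rule. Of the 38 sites, 6 were called in every TNFDEX and no TNF library, beside 8.34% of all regions: the 3 upstream of Alb, both of Ttr and the strong one of Ahsg. The opposite pattern held for 0 sites (0.162%). TNF has 2 libraries and NI has 3, so the 2 counts follow rules of unequal strictness and their difference was not tested. Of 508 regions with a value in all 5 libraries, 11.4% were higher and 0.984% lower in TNFDEX (limma), or 58 and 5 regions, against 7 and 0 with library totals and 99 and 73 with a term for the mitochondrial split. The median difference here was 0.56 before scaling and -0.096 after it. The 2 sites among them were not called, at -0.02 (SE 0.34, limma adjusted p = 0.964) before Afp and 0.40 (SE 0.30, limma adjusted p = 0.376) beyond Trf. With library totals these were 0.63 and 1.06, and without TNF replicate 2 -0.18 and -0.14, none called.

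Genes related to the 6 were described by the same rule of a site called in at least 2 libraries within 50 kb. Over all genes, 36.5% had such a site in DEX and 39.4% in TNFDEX, against 14.8% in NI and 6.08% in TNF. None of the listed genes passed the test of peak number for dexamethasone or for TNF in either direction (exact permutation test, adjusted over all genes), as no gene did. Of the 4 albumin family genes (Alb, Afp, Afm and the vitamin D carrier Gc), 3 had a site in each of NI, DEX and TNF, and all 4 had one in TNFDEX. The NI and TNF sites of this family were the 1 site before Afp, which also lies within 50 kb of Afm.

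Of 13 other plasma carriers, 6 had a site in DEX and 8 in TNFDEX, against 1 in NI and 0 in TNF. The strongest in DEX were at Selenop, the selenium carrier (normalized tag count 133 ± 29.3, SD, n = 3), and Cp, the copper protein ceruloplasmin (51.7 ± 8.40, SD, n = 3). Apom, a lipid carrier of lipoproteins, followed with 24.3 ± 5.20 (SD, n = 3), and Azgp1 with a mean of 17.2 over 2 libraries. Of the 5 cystatin superfamily genes in the Ahsg cluster, 4 had a site in DEX and in TNFDEX, 1 in NI and 0 in TNF. Fetub was counted in DEX through the strong Ahsg site and the site inside Fetub, and in TNFDEX through the strong Ahsg site. Kng1, a kininogen gene, had a mean of 17.9 in 2 DEX libraries and in 2 NI libraries.

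Of 12 receptors and partners of the carriers, 6 had a site in DEX and 6 in TNFDEX, against 2 in NI and 0 in TNF. Stra6, the receptor for RBP4, carried 1 inside the gene, at 31.1 ± 4.85 (SD, n = 3) in DEX, and had no call there without dexamethasone. Hfe, a partner of the transferrin receptor, had means of 31.3 in 2 NI and 38.3 in 2 DEX libraries. Fcgrt, which spares albumin from breakdown, averaged 18.3 in 2 NI and 18.7 in 2 DEX libraries.

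Transcriptional regulators of the carriers had a site at 9 of 12 genes in DEX and 10 in TNFDEX, against 3 in NI and 2 in TNF. Hnf4a had the strongest of all these lists, 302 ± 150 (SD, n = 3) in DEX and 323 ± 122 (SD, n = 3) in TNFDEX, 23.3 kb outside the gene, with no call in NI or TNF. Foxa2 had 71.2 ± 31.7, Nr5a2 63.7 ± 33.0 and Zbtb20, a repressor of Afp, 57.0 ± 9.96 (SD, n = 3 for each) in DEX. Among 10 marker genes of other cell types, 7 also had a site in DEX and in TNFDEX, 3 in NI and 2 in TNF. These included Stab2 (74.9 ± 28.9), Dcn (44.1 ± 8.39), Col1a1 (38.7 ± 10.9) and Adgre1 (36.4 ± 24.4; SD, n = 3 for each) in DEX, so such sites also lay near genes that mark other cells.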

How the data were processed

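Members and gene lists were chosen with earlier results of these data known. The submitters' processing notes name the tools HOMER 4.6, Bowtie 1.0.0 and CASAVA 1.8 and the build mm10; how reads were filtered is not given in the sources used here. The authors, per the file headers, called peaks in each library against 1 input: false discovery rate 0.001, 4-fold over the input and over the surrounding 10000 bp, Poisson p of 0.0001. The deposited signal is the normalized tag count, scaled by the authors to 20000000 tags. The deposited fraction is HOMER's focus ratio. Deposited scores, p-values and the fold ratios over input and surroundings came from the authors for each peak and only described or filtered peaks. Lowest normalized tag counts per library were 5.4 to 6.6, so weak peaks rest on few tags. Normalized tag count times depth came within 0.128 of a whole tag.

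Regions were made by merging peaks sharing 1 bp (median width 172 bp). Signal was compared with limma 3.58.1 (R 4.3.3) on log2 normalized tag counts after trimmed-mean scaling, over regions called in every library of both groups, with Benjamini-Hochberg adjustment. Peaks per gene were compared by an exact permutation test (Python 3.11.15). Both were tested on simulated data. The 6 genes were all named; a site is given in full where called in at least 2 libraries of a group, the up to 4 strongest genes of each list by mean DEX signal are named (1 of them is not reported here), and likeness named 2 genes on other chromosomes. Alternatives were another scaling, peak threshold, peak number, merging rule, distance, a replicate block, a term for the mitochondrial split, and each replicate left out. Same-numbered NI and DEX libraries deviated together over 118 regions (r = 0.574, 0.534 and 0.71), and every pair of libraries from different groups on the same side of the mitochondrial split did so too; for DEX and TNFDEX number 2 gave -0.503. P-values measure the spread between these libraries.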

Additional observations from a re-analysis of the deposited data

How the results depend on the processing

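Of 495 alternative values for 38 results, 29 reversed, 23 counts moved by more than 1.5 times and 1 value passed the threshold. The other 442 stayed on their side of the threshold; 15 of them are counts that changed by up to 1.5 times and 5 are differences that became 0. The causes were not tested. Weak sites rest on few tags, and a site with no call has no value, which limits comparisons with NI and TNF most.

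Sites called in NI numbered 0 if required in every library, 10 in at least 1, and 0 to 2 with a replicate left out (0 without NI replicate 1 or 2). The corresponding DEX counts were 6, 21 and 6 to 9 (6 without DEX replicate 2). For TNF they were 2 and 7, and leaving out a library could not be done with 2. For TNFDEX they were 8, 25 and 8 to 10. With folds of at least 8 over input and surroundings, DEX had 7 sites of 12 left (33.1% of regions left) and TNFDEX 7 (42%). NI had 2 (4.27%) and TNF 1 (1.11%) in that setting. With the 2522 strongest peaks of each library, DEX had 4 of 8 (20.6%) and TNFDEX 5 (21.1%), against 2 in NI (12.2%) and 2 in TNF (4.92%). Within 10 kb, DEX had 6 and TNFDEX 5, against 2 in NI and 2 in TNF.

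Sites called in every DEX and no NI library numbered 3 to 6 with a replicate left out and 5 among libraries with low mitochondrial signal, an alternative chosen after seeing the data. For TNF against NI they numbered 0 to 4, and for TNFDEX against DEX 0 to 1. Sites called in every TNF and no TNFDEX library numbered 1 with equal peak numbers (2.07% of regions) and 0 to 3 with a replicate left out (3, and 6.07% of regions, without TNF replicate 2, which leaves 1 TNF library).

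In TNFDEX against DEX, library totals alone turned the 36.0 kb Alb site to 0.006022 and the Afp site to 0.11, also with calls in at least 2 libraries, and a mitochondrial term turned the latter to 0.087. With a replicate left out, the log2 differences ran from -0.39 to 0.25 at the 36.0 kb Alb site, -0.66 to 0.18 at 10.7 kb, -0.22 to 0.12 before Afp and -0.20 to 0.32 beyond Trf. For TNFDEX against TNF they ran from -0.41 to 0.10 before Afp and -0.14 to 0.59 beyond Trf (-0.14 without TNF replicate 2). In that comparison the Afp site was at 0.63 and the Trf site at 1.06 with library totals; the Afp site was at 0.005712 with merging at 50% overlap and 0.01072 with the replicate block. The lowest limma adjusted p of any site over these alternatives was 0.271 against DEX and 0.274 against TNF.

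The replicate block changed no other direction and no call at the 38 sites; over all regions of TNFDEX against DEX it called 18 higher, the mitochondrial term 25 higher and 1 lower, and leaving out DEX replicate 3 17 higher and 7 lower, beside 0. In the exact permutation test within replicate numbers the smallest p possible was 0.0625.

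With folds of at least 8, 1 of the 6 genes passed for dexamethasone: Alb, with 3.17 more peaks (exact permutation test, adjusted p = 0.0383), beside 1106 of 8480 genes. Alb had 0.667 more peaks within 10 kb (exact permutation p = 0.28) and 1 more with equal peak numbers (exact permutation p = 0.015, adjusted p = 0.15), neither passing. The dexamethasone difference was -0.25 peaks at Trf with equal peak numbers and -0.25 at Ahsg within 10 kb. TNF differences turned to 0.167 at Alb and Afp with folds of at least 8 and 0.333 with equal peak numbers, to -0.583 at Trf with folds of at least 8, and to -0.167 at Ahsg with equal peak numbers. With a replicate left out they ran from -0.0833 to 0.5 at Trf and -0.333 to 1.17 at Rbp4.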

Other observations

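The genes on other chromosomes whose summed GR signal followed each of the 6 most closely across the 11 libraries were found by the Pearson correlation of log2(1 + summed normalized tag count of the called peaks within 50 kb). For Alb they were Ltbp2 (0.993) and Pde4dip (0.991), and for Afp the same genes (0.994 and 0.992). For Ahsg they were Anapc16 (0.997) and Ltbr (0.996). Ttr was followed by Aldh4a1 (0.983) and Aptx (0.981), Trf by Fermt2 (0.987) and Slc25a48 (0.981), and Rbp4 by Rbpj (0.987) and Vcan (0.986). All these values share the libraries and their peak numbers, which differ widely, and each is the highest among all genes, so they are given as a description.

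Summed over the called peaks of a library, the signal within 50 kb of Ahsg was 76.3, 107 and 119 in DEX and 154, 56.6 and 93.7 in TNFDEX, against 9.4, 10.6 and 0 in NI and 6.6 and 0 in TNF. At Alb the sums were 108, 112 and 271 in DEX and 212, 80.6 and 167 in TNFDEX, against 11.9, 23.6 and 0 in NI and 17.2 and 11.5 in TNF. TNFDEX replicate 2, which had the fewest peaks of its group, was the lowest TNFDEX library in both sums. At the Alb, Afp, Ttr, Trf and Ahsg sites with calls in both, it had 0.378 to 0.657 times the signal of TNFDEX replicate 1, around the median ratio of 0.484 over 6109 regions.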
